A study of Oryza sativa with 12 samples.

Results

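The leaf transcriptome of OsbZIP62V rice was compared with that of its wild type, Kitaake, in 6 of the 12 libraries of the series. OsbZIP62V plants overexpress the rice bZIP transcription factor OsbZIP62 fused to VP64, a universal activation module. All genes that passed a filter on low counts were members of the comparison, which kept 19864 of the 35679 genes listed. The question followed here was which changes were present in all 3 OsbZIP62V libraries and which were present only in the libraries of replicates 1 and 3.

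The groups were the overexpression line OE1 in the Kitaake background (libraries OE1-1, OE1-2 and OE1-3) and untransformed Kitaake (WT-1, WT-2 and WT-3). Both groups were seedlings at the four-leaf stage, grown in liquid culture in a growth chamber without stress, and RNA was taken from leaves. A library was made from 1 biological replicate, a pool of 30 plants. The other 6 libraries were Nipponbare wild type and osbzip62 mutants, a CRISPR/Cas9 line named C54 in Nipponbare. OE1 is a single line, so what the construct does and what is peculiar to that line cannot be told apart. The sources used here do not name the promoter that drives the transgene. In its seedling stress tests the study selected transgenic seed on hygromycin and germinated wild type without it. Those sources do not say whether the plants used for RNA were selected in this way.

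As background, bZIP factors of the group to which OsbZIP62 belongs act in the response to abscisic acid (ABA), the hormone that plants accumulate as they dry out. ABA binds receptors that block clade A protein phosphatases 2C (PP2Cs). This frees SnRK2 kinases, called SAPKs in rice, which phosphorylate bZIP factors, and these bind ABA-responsive elements in promoters. Known outputs include late embryogenesis abundant (LEA) proteins, dehydrins, further transcription factors and the PP2Cs themselves, which close a negative feedback. VP64 is a strong activator from a viral protein and can raise targets of a factor without the signal that normally switches the factor on.

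The targeted gene was examined first. OsbZIP62 (LOC_Os07g48660) was at 0.458, 0.313 and 0.101 CPM (read counts put on a common total per library) in WT-1, WT-2 and WT-3 and at 1226, 1055 and 869 CPM in OE1-1, OE1-2 and OE1-3. Every OsbZIP62V library was thus far above every wild type library, and OE1-2 lay between the other OsbZIP62V libraries. The log2 fold change of OsbZIP62 was 11.98 (SE 0.41, adjusted p = 1.93e-05, edgeR's quasi-likelihood test). Reads of the fusion and of the native transcript were counted together.

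Depth was similar in most libraries, at 9224755 counts in WT-1 and 15923202 to 19759728 in the other 5. OE1-2 stood apart from the other OsbZIP62V libraries. Along principal component 1, with 61.9% of the variance, the wild type libraries lay at -59.1, -57.5 and -62.3, OE1-1 at 65.1, OE1-3 at 107.9 and OE1-2 at 5.79. In OE1-2, 1353 genes were over 1 log2 unit above the wild type mean, against 2046 in OE1-1 and 3153 in OE1-3. Single wild type libraries had 517 to 574 genes over 1 log2 unit above the mean of the other 2. OE1-2 was therefore between the wild type and the other 2 OsbZIP62V libraries over the whole transcriptome, whereas its OsbZIP62 level lay between theirs. Named genes below are given by library, and the counts of gene lists are given with and without OE1-2 where the number moved.

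Calls needed a log2 fold change of over 1 in either direction and a p under 0.05 after Benjamini-Hochberg adjustment over all genes tested. By this rule 5.93% of the genes tested were called, of which 769 genes rose in OsbZIP62V, 3.87% of the genes tested, and 409 fell, 2.06%. Without OE1-2, 2474 of 20898 genes tested rose, 11.8%, and 585 fell. Groups did not overlap in CPM, in either direction, for 30.5% of the genes tested. The p-values measure the spread between these replicates, and the smallest p that an exact permutation of 3 against 3 libraries allows for a gene is 0.1.

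To sort the calls, each OsbZIP62V library was set against the mean of the 3 wild type libraries on the log2 CPM scale. Of the 769 genes that rose, 536 (69.7%) were over 1 log2 unit above that mean in all 3 OsbZIP62V libraries. A further 162 (21.1%) passed this limit in OE1-1 and OE1-3 only. Of the 409 genes that fell, 301 (73.6%) were over 1 log2 unit below the mean in all 3 libraries and 42 (10.3%) in OE1-1 and OE1-3 only. The remaining calls had other patterns, such as OE1-1 and OE1-2 without OE1-3 (26 genes that rose) or OE1-2 and OE1-3 without OE1-1 (24 genes that rose). The classes come from the same values as the calls, so they are a description and were not tested.

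Presence in all 3 libraries did not mean an equal change. The 536 genes were therefore split by the range of their 3 log2 differences, with genes within 1 log2 unit termed even. Of these genes, 299 were even, with median differences from wild type of 1.95 in OE1-1, 1.92 in OE1-2 and 2.00 in OE1-3. The other 237 were uneven, with medians of 3.17, 1.73 and 3.90, and OE1-2 was the library nearest the wild type for 203 of them. For the 162 genes that rested on OE1-1 and OE1-3 the medians were 1.97, 0.79 and 2.5. OE1-2 lay inside the wild type range for 15 of these 162 genes. The genes that fell were mostly even, 229 of 301, with medians of -1.66, -1.51 and -1.83.

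**Figure D1:**
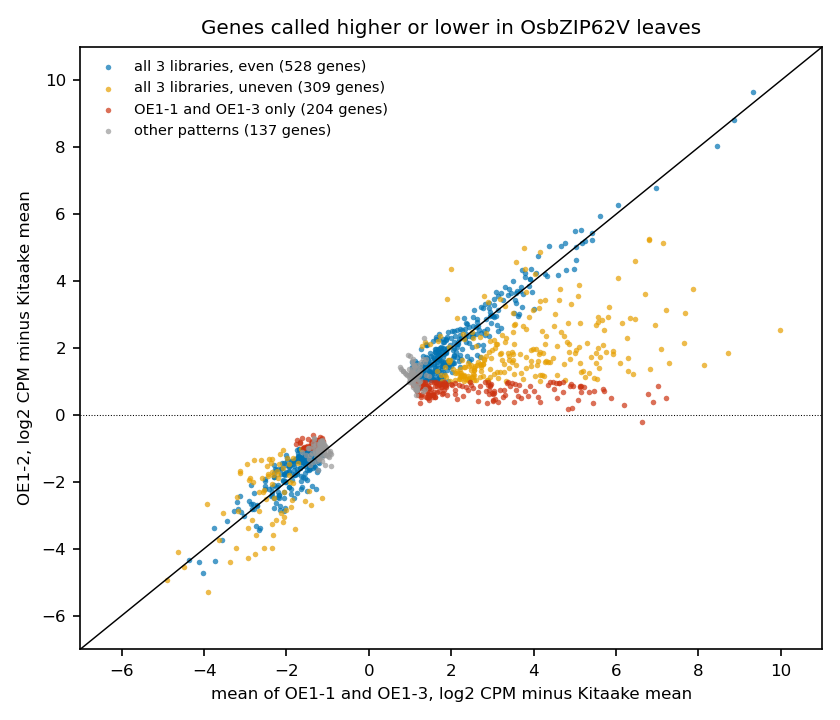
Each point is a gene called higher or lower in OsbZIP62V. The x axis is the mean of OE1-1 and OE1-3 and the y axis is OE1-2, both as log2 CPM minus the mean of the 3 Kitaake libraries, and the line marks equal values. The 528 even genes follow the line, while the 309 uneven genes spread mostly between the line and 0 and the 204 genes of OE1-1 and OE1-3 only lie within 1 log2 unit of 0 on the y axis.

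The limit between the classes cut through a continuous range. OE1-2 was between 0.75 and 1.25 log2 units above wild type for 176 of the 698 genes that rose in either class. Just inside the limit were the vacuolar iron transporter homolog LOC_Os04g59020 (differences of 1.85, 1.00 and 1.99 in OE1-1, OE1-2 and OE1-3) and LOC_Os03g11560, annotated as a digalactosyldiacylglycerol synthase, an enzyme of chloroplast membrane lipids (1.06, 1.01 and 1.33). Just outside were the GDSL lipase LOC_Os01g11730 (4.73, 0.996 and 4.19) and a non-specific phospholipase C, LOC_Os01g72520 (1.59, 0.995 and 1.59). The lipase differed strongly between libraries and the phospholipase did not, although both are counted as resting on OE1-1 and OE1-3.

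Of the 536 genes that rose in all 3 libraries, 84 were called in each of the 6 fits with 1 library left out, and 80 of these were even. None of the 162 genes of OE1-1 and OE1-3 only was called in all 6 fits. Without OE1-2, all 162 and 531 of the 536 were called, so that this fit does not set the classes apart. Among the genes that fell, 72 of the 301 in all 3 libraries and none of the 42 in OE1-1 and OE1-3 only were called in all 6 fits. The classes are defined by OE1-2, so these counts are in part set by the definition. Of the 139 called genes chosen to be named by a fixed rule, 136 were called without OE1-2, 93 without OE1-3, 63 without OE1-1 and 31 to 36 without 1 of the wild type libraries. Leaving out any wild type library lowered the number of genes that rose to between 112 and 143, and leaving out OE1-1 lowered it to 286. Leaving out any wild type library lowered the number that fell to between 84 and 121, and leaving out OE1-1 to 223.

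Genes induced by ABA and dehydration were among those that rose evenly. LEA protein 1 (LOC_Os03g20680), one of the hydrophilic proteins that protect cells during drying, was at 0.916, 1.19 and 1.01 CPM in the wild type libraries and at 36.6, 37.3 and 38.0 CPM in OE1-1, OE1-2 and OE1-3. The 3 OsbZIP62V libraries were nearly equal and far above all wild type libraries. LEA protein 1 rose by 5.14 on the log2 scale (SE 0.19, adjusted p = 2.06e-05), and it was called in all 6 fits with a library left out. A second LEA repeat protein (LOC_Os01g50910) was at 0, 0.188 and 0.805 CPM in wild type and at 15.7, 19.9 and 16.1 CPM in OsbZIP62V. Both LEA genes thus showed a small spread in OsbZIP62V relative to the change.

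LOC_Os05g31670, annotated as an ABA-induced plasma membrane protein of the PM19 type, had 1 count in the 3 wild type libraries together. It was at 9.53, 10.6 and 8.25 CPM in OE1-1, OE1-2 and OE1-3, a ratio of 446 with a 95% counting interval of 79.7 to 17652. A dehydrin of the DHN1 (RAB17) type, LOC_Os11g26570, had no count in wild type. It was at 2.64, 1.52 and 3.19 CPM in the OsbZIP62V libraries, which is at least 38.4-fold higher than a wild type group granted 3 counts in all. It was present in all 3 libraries but uneven, with OE1-2 lowest. The aquaporin TIP3-1 (LOC_Os10g35050), of a tonoplast family known from seeds, also had no count in wild type and was at 0.631, 0.650 and 0.660 CPM in OsbZIP62V. These levels rest on 11, 12 and 12 counts, and the gene was called in only 1 of the 6 fits with a library left out.

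A list of 13 tested genes was matched on annotations that name LEA, dehydrin, ASR or HVA22 proteins or abscisic acid. It therefore also holds the ABA-responsive element binding factors OsbZIP23 and LOC_Os06g10880 and the ABA-degrading 8'-hydroxylases LOC_Os08g36860 and LOC_Os09g28390. Of the 13, 8 rose and 1 fell, and without OE1-2 10 rose and 2 fell. The 8 that rose did so in all 3 libraries, 3 of them evenly and 5 unevenly, and included both binding factors. The gene that fell was the hydroxylase LOC_Os09g28390. The medians of the 13 genes were 2.33 in OE1-1, 1.52 in OE1-2 and 2.37 in OE1-3, against 1.03, 0.55 and 1.28 over all 2217 tested genes that carry a locus name. Locus names were available only for genes in the study's supplementary lists of changed genes, so this and every list below holds only genes the study listed as changed in one of the lines. The counts are therefore no independent evidence of a list's direction, and among these 2217 genes 696 rose and 212 fell. Without OE1-2, 1091 of the 2217 rose and 277 fell, and OE1-2 was the lowest of the 3 OsbZIP62V libraries for 1113 of them.

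PP2C phosphatases went both ways. PP2C 9 (LOC_Os01g62760) was at 65.7, 75.2 and 54.2 CPM in wild type and at 434, 403 and 353 CPM in OsbZIP62V (log2 fold change 2.61, SE 0.18, adjusted p = 0.000465). A further PP2C, LOC_Os01g40094, was at 33.9, 36.0 and 28.1 CPM in wild type and at 147, 149 and 143 CPM in OsbZIP62V. PP2C 30 (LOC_Os03g16170) was at 92.5, 109 and 69.3 CPM and at 243, 264 and 206 CPM. In these 3 genes the groups were well separated and OE1-2 was no lower than OE1-3. Of the 15 tested PP2C genes, 6 rose and 5 fell, and none had the pattern of OE1-1 and OE1-3 only. PP2C 32 (LOC_Os03g18150) fell evenly, from 157, 189 and 173 CPM to 74.8, 76.9 and 63.7 CPM.

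Several transcription factors also rose evenly. OsbZIP23 (LOC_Os02g52780), a related factor that acts in the ABA response, was at 11.1, 17.1 and 13.2 CPM in wild type and at 68.7, 67.4 and 69.7 CPM in OsbZIP62V. OsbZIP23 rose by 2.31 on the log2 scale (SE 0.18, adjusted p = 0.000794), and the OsbZIP62V libraries differed from each other by less than the wild type libraries did. LOC_Os05g49420, annotated as a G-box binding factor, was at 61.7, 58.4 and 79.9 CPM in wild type and at 137, 140 and 164 CPM in OsbZIP62V (log2 fold change 1.14, SE 0.17, adjusted p = 0.00911). A DREB-type factor, LOC_Os02g43940, of the family that binds dehydration-responsive elements, was at 4.01, 2.31 and 2.26 CPM and at 11.8, 9.96 and 14.8 CPM.

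All 5 NAC genes that rose were even. OsNAC10 (LOC_Os11g03300), a NAC factor annotated for drought tolerance, was at 3.21, 2.31 and 3.17 CPM in wild type and at 49.4, 53.4 and 71.1 CPM in OsbZIP62V (log2 fold change 4.33, SE 0.23, adjusted p = 0.000144). The NAC gene LOC_Os12g03040 was at 13.1, 7.75 and 9.81 CPM in wild type and at 98.5, 127 and 124 CPM in OsbZIP62V. LOC_Os07g48550 was at 57.9, 54.3 and 43.8 CPM and at 168, 251 and 153 CPM, highest in OE1-2. Of the 15 tested NAC genes 5 rose and 4 fell, and without OE1-2 7 rose and 5 fell. Among those that fell was NAC domain protein 67 (LOC_Os07g12340), from 63.6, 85.9 and 52.4 CPM to 30, 28.6 and 30.8 CPM. The medians of the 15 genes were 0.60, 1.24 and 1.36, so that OE1-1 and not OE1-2 was nearest the wild type.

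The homeodomain-like gene LOC_Os08g08130 had no count in any wild type library and was at 57.8, 54.5 and 55.1 CPM in OE1-1, OE1-2 and OE1-3, at least 878-fold higher. The 3 OsbZIP62V libraries differed by far less than this change. Of 10 tested homeodomain genes 7 rose, and without OE1-2 9 rose. HOX4 (LOC_Os09g29460) was at 41.7, 25.9 and 21.9 CPM in wild type and at 75.3, 71.4 and 101 CPM in OsbZIP62V. A HOX gene annotated by similarity, LOC_Os04g45810, was at 101, 120 and 81.5 CPM and at 336, 302 and 173 CPM. It rose by 1.42 on the log2 scale (SE 0.27, adjusted p = 0.0219), with OE1-3 and not OE1-2 lowest.

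Even changes were also found among enzymes and membrane proteins. A UDP-glucosyltransferase (LOC_Os05g42070), of a family that attaches sugars to small molecules, was at 3.78, 4.63 and 4.38 CPM in wild type and at 55.0, 56.9 and 50.6 CPM in OsbZIP62V (log2 fold change 3.66, SE 0.16, adjusted p = 6.72e-05). CYP85A1 (LOC_Os03g40540), a P450 of brassinosteroid synthesis, was at 3.78, 2.88 and 2.72 CPM and at 15.4, 10.8 and 18.2 CPM. CYP93G2 (LOC_Os06g01250), a P450 of flavone glycoside synthesis, was at 42.7, 43.8 and 21.0 CPM and at 122, 91.9 and 141 CPM. In both P450 genes OE1-2 was the lowest OsbZIP62V library but lay well above all wild type libraries.

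The aquaporin TIP1-1 (LOC_Os03g05290), a water channel of the vacuolar membrane, was at 35.5, 28.1 and 33.1 CPM in wild type and at 116, 81.3 and 124 CPM in OsbZIP62V. A remorin (LOC_Os03g59360), of a plasma membrane protein family, was at 178, 203 and 152 CPM and at 499, 475 and 469 CPM. LOC_Os02g57280, annotated as induced by the brown planthopper, was at 521, 415 and 498 CPM and at 1516, 1879 and 1534 CPM. All 3 genes rose, and none of their OsbZIP62V values overlapped the wild type.

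**Figure D2:**
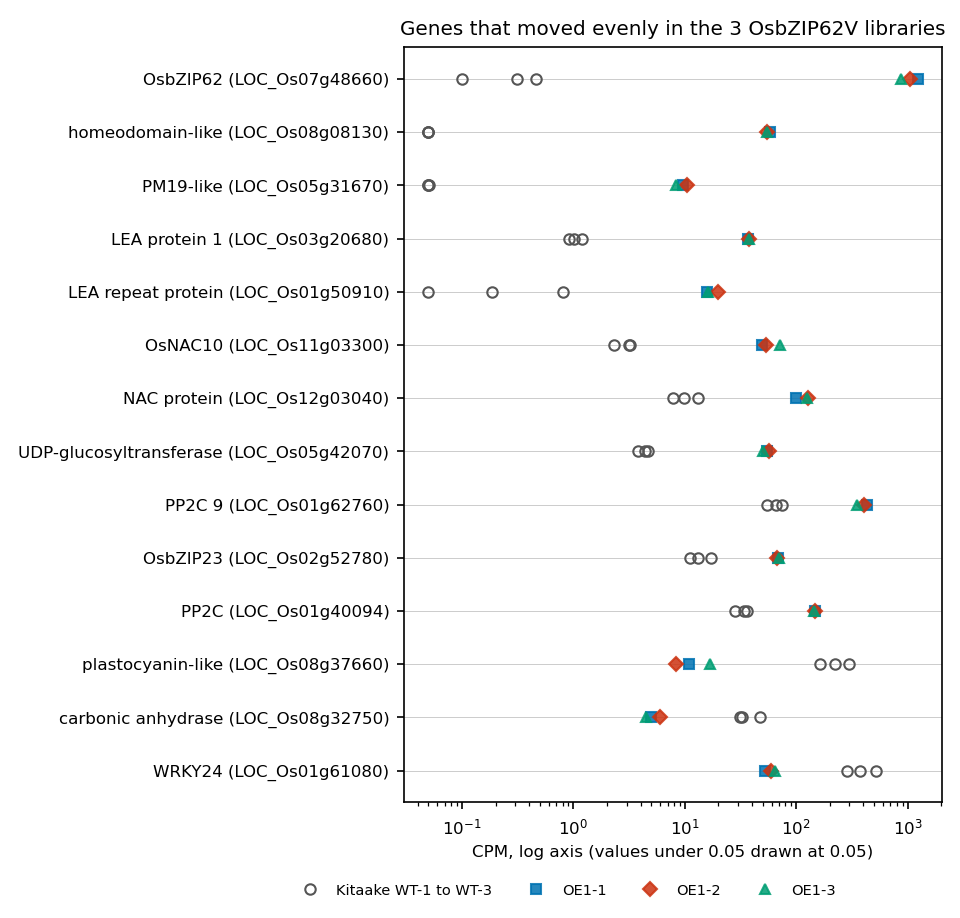
CPM on a log axis of genes that moved evenly, with 1 row a gene, open circles for the 3 Kitaake libraries and filled symbols for OE1-1, OE1-2 and OE1-3. In each row the 3 OsbZIP62V symbols lie close together and apart from the wild type, as for OsbZIP23 at 68.7, 67.4 and 69.7 CPM against 11.1 to 17.1 CPM in wild type.

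Other patterns with OE1-2 among the high libraries were less common. DSM2 (LOC_Os03g03370), a beta-carotene hydroxylase that supplies precursors of ABA, was at 17.4, 21.3 and 19.3 CPM in wild type and at 43.2, 45.7 and 29.4 CPM in OsbZIP62V. It was over the limit in OE1-1 and OE1-2 but not in OE1-3 (log2 fold change 1.03, SE 0.20, adjusted p = 0.0244). The chloroplast chaperone ClpD (LOC_Os02g32520) was at 116, 174 and 180 CPM and at 396, 465 and 253 CPM, again lowest in OE1-3. LOC_Os06g07030, annotated as a TINY-like AP2 factor, was at 24.4, 25.8 and 18.9 CPM and at 64.4, 63.8 and 39.5 CPM. Of the 9 tested AP2/ERF genes 4 rose, with medians of 0.94, 0.98 and 0.93 in the 3 libraries. Falls are under-represented in this list, as only 17 of the 203 genes that fell by over 3-fold had a locus name.

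Genes of light harvesting and chlorophyll synthesis differed widely between the OsbZIP62V libraries. Chlorophyll a-b binding protein 2 (LOC_Os01g41710), a light-harvesting antenna protein, was at 21.9, 16.3 and 14.0 CPM in wild type and at 1561, 44.9 and 2472 CPM in OE1-1, OE1-2 and OE1-3. A type I chlorophyll a/b-binding protein, LOC_Os01g52240, was at 8.24, 9 and 5.13 CPM and at 554, 18.2 and 604 CPM. OE1-2 was above all wild type libraries for both genes but far below OE1-1 and OE1-3. The log2 fold change of LOC_Os01g41710 was 6.30 (SE 1.24, adjusted p = 0.0254), with a standard error that was large beside those of the even genes. Reads of close copies within this family may have been divided among its members.

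Of 16 tested genes of photosynthesis and chlorophyll synthesis, 9 rose, 5 of them uneven and 4 resting on OE1-1 and OE1-3 only, and without OE1-2 11 rose. None of the 9 was even, and OE1-2 was the lowest OsbZIP62V library for 14 of the 16 genes, against 1113 of the 2217 with a locus name. Their summed level was 3230 to 3608 CPM in wild type and 9424, 4488 and 11040 CPM in OE1-1, OE1-2 and OE1-3. CP29 (LOC_Os07g37240), a minor antenna protein of photosystem II, was at 284, 341 and 348 CPM in wild type and at 1052, 526 and 1071 CPM in OsbZIP62V (log2 fold change 1.44, SE 0.28, adjusted p = 0.025). The photosystem I subunit PsaO (LOC_Os04g33830) was at 601, 560 and 559 CPM and at 1369, 893 and 1458 CPM. For both genes OE1-2 lay between the wild type and the other OsbZIP62V libraries.

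The photosystem II repair protein PSB27-H1 (LOC_Os03g21560) had the same pattern, at 26.1, 36.1 and 24.1 CPM in wild type and 67.1, 37.3 and 81.9 CPM in OsbZIP62V, and did not pass the test (log2 fold change 1.11, SE 0.29, adjusted p = 0.059). A pair of genes of the removal of reactive oxygen from the same class were catalase A (LOC_Os02g02400), at 168, 213 and 230 CPM and at 562, 315 and 867 CPM, and a chloroplast superoxide dismutase (LOC_Os08g44770), at 59.4, 66.8 and 79.7 CPM and at 163, 96.5 and 212 CPM. Both passed the test. Peroxiredoxin-2E-2 (LOC_Os02g09940), which reduces peroxides in the chloroplast, was at 26.8, 25.6 and 20.2 CPM in wild type and at 76.7, 25.6 and 69.9 CPM in OsbZIP62V. OE1-2 was inside the wild type range, and the gene did not pass the test (log2 fold change 1.25, SE 0.37, adjusted p = 0.0801). Dehydroascorbate reductase (LOC_Os05g02530), which regenerates ascorbate, was at 422, 322 and 312 CPM and at 275, 265 and 186 CPM and did not pass either (log2 fold change -0.54, SE 0.21, adjusted p = 0.148).

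Many genes of lignin and phenylpropanoid synthesis were higher in OE1-1 and OE1-3 than in OE1-2. A phenylalanine ammonia-lyase (LOC_Os02g41630), the entry enzyme of the pathway, was at 111, 87.0 and 67.8 CPM in wild type and at 736, 145 and 1471 CPM in OsbZIP62V (log2 fold change 3.15, SE 0.71, adjusted p = 0.0388). A cinnamoyl-CoA reductase (LOC_Os08g34280), the first enzyme committed to lignin monomers, was at 8.47, 11.8 and 12.9 CPM and at 35.1, 17.0 and 62.2 CPM. Cinnamyl alcohol dehydrogenase 2 (LOC_Os02g09490), the last step to the monomers, was at 7.67, 11.3 and 12.6 CPM and at 45.7, 22.6 and 99.0 CPM. All 3 enzymes were highest in OE1-3 and lowest of the OsbZIP62V libraries in OE1-2. Of 16 tested genes of lignin and dirigent proteins 7 rose and 1 fell, and without OE1-2 13 rose. These rises stand against 696 and 1091 of the 2217 genes with a locus name. Of the 7 that rose, 1 was even, 3 were uneven and 3 rested on OE1-1 and OE1-3 only. The even gene was LOC_Os01g67540, annotated as 4-coumarate-CoA ligase-like 6, from 25.1, 29.1 and 14.8 CPM to 49.8, 46.4 and 47.5 CPM. The summed level of the 16 genes was 190 to 259 CPM in wild type and 1138, 373 and 2077 CPM in OsbZIP62V.

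Many cell wall genes had the same order of libraries. Beta-galactosidase 9 (LOC_Os06g37560), of a family that trims wall polysaccharides, was at 3.78, 2.69 and 0.956 CPM in wild type and at 235, 2.87 and 311 CPM in OsbZIP62V. A peroxidase precursor (LOC_Os05g04380) was at 1.49, 3.00 and 1.01 CPM and at 123, 2.65 and 314 CPM. A fasciclin-like arabinogalactan protein (LOC_Os08g23180), a cell surface glycoprotein, was at 2.98, 1.88 and 1.26 CPM and at 42.1, 3.52 and 121 CPM. In the beta-galactosidase and the peroxidase OE1-2 lay inside the wild type range, and in the third gene just above it. Their log2 fold changes were 6.29 (SE 1.45), 6.31 (SE 1.46) and 4.84 (SE 1.12), each with an adjusted p of 0.0412.

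Of 23 tested genes of cell wall polysaccharides 7 rose and 2 fell. This share of rises was close to the 696 of 2217 of all genes with a locus name. Without OE1-2 16 rose, against 1091 of 2217. Of the 7 that rose, 2 were even, 3 were uneven and 2 rested on OE1-1 and OE1-3 only. OE1-2 was the lowest OsbZIP62V library for 16 of the 23, against 1113 of 2217. The summed level of the 23 genes was 187 to 226 CPM in wild type, 435 CPM in OE1-1 and 747 CPM in OE1-3, while OE1-2 at 138 CPM was below all wild type libraries. Of 4 tested fasciclin and arabinogalactan proteins 1 rose, and without OE1-2 all 4 did. Their medians were 4.79, 0.06 and 5.81. Sucrose synthase 1 (LOC_Os03g28330), which cleaves sucrose to the UDP-glucose used for cellulose, was at 6.07, 1.38 and 3.22 CPM in wild type and at 78.8, 6.66 and 242 CPM in OsbZIP62V. It is counted as present in all 3 libraries, but OE1-2 exceeded the highest wild type library only slightly.

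Surface lipid genes had this order too. Of 29 tested genes of wax, cutin and surface lipids 15 rose and 1 fell, and without OE1-2 25 rose, against 1091 of 2217. OE1-2 was the lowest OsbZIP62V library for 23 of the 29, against 1113 of 2217. A lipid-transfer protein (LOC_Os11g02424), of a family that carries lipids to the cell surface, was at 45.4, 43.4 and 25.4 CPM in wild type and at 213, 58.6 and 402 CPM in OsbZIP62V. Another, LOC_Os11g02400, was at 86.9, 89.9 and 49.7 CPM and at 188, 134 and 371 CPM. These neighbouring genes are similar, and reads could have been divided between them. The GDSL lipase LOC_Os01g11620 was at 0.572, 1.06 and 1.16 CPM and at 51.4, 1.14 and 107 CPM, with OE1-2 inside the wild type range.

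A jacalin-like lectin (LOC_Os12g14440), of a family of carbohydrate-binding proteins, also rested on OE1-1 and OE1-3. It was at 101, 105 and 27.1 CPM in wild type and at 1137, 131 and 2682 CPM in OsbZIP62V (log2 fold change 4.08, SE 1.01, adjusted p = 0.0495). The sugar transporter SWEET13 (LOC_Os12g29220), which exports sucrose from leaf cells, was at 35.8, 40.5 and 30 CPM and at 99.9, 57.1 and 113 CPM. In both genes OE1-2 was above the wild type libraries and below OE1-1 and OE1-3.

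**Figure D3:**
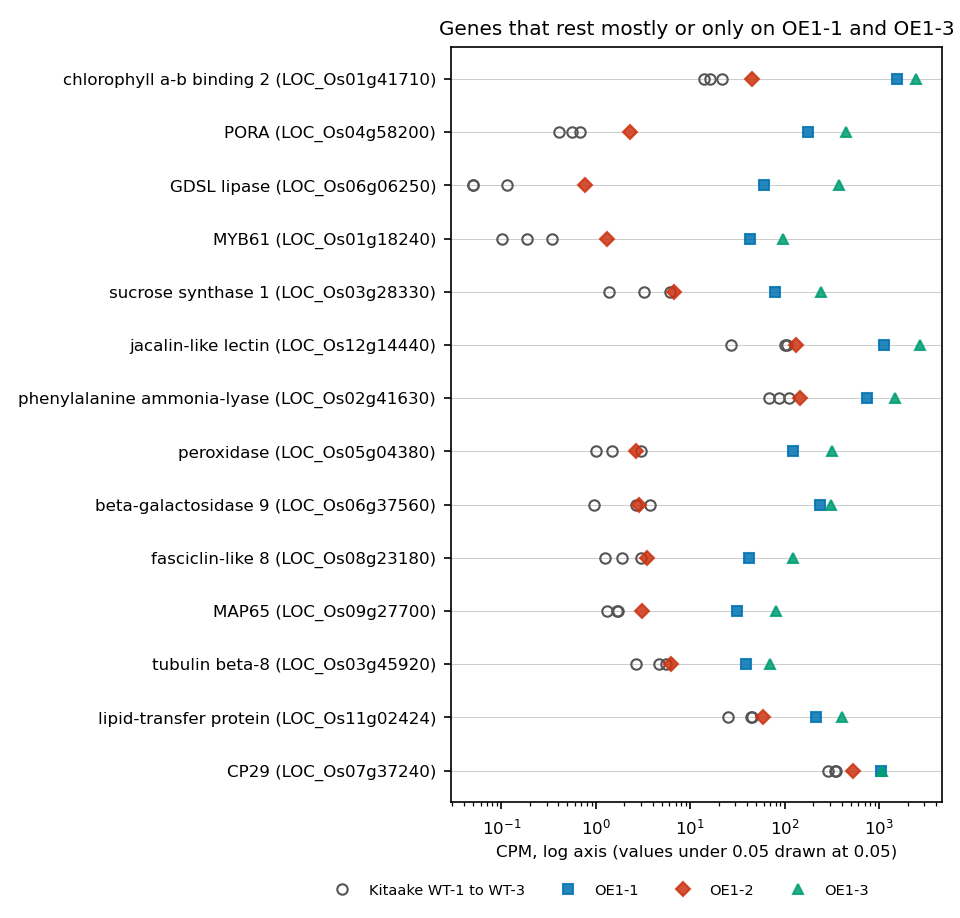
CPM on a log axis of genes whose change rested mostly or only on OE1-1 and OE1-3, with 1 row a gene, open circles for the 3 Kitaake libraries and filled symbols for the OsbZIP62V libraries. In every row OE1-2 lies among the wild type circles or nearer to them than to OE1-1 and OE1-3, as for phenylalanine ammonia-lyase at 145 CPM, while OE1-1 and OE1-3 lie to the right at 736 and 1471 CPM.

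Genes of cell division and microtubules, taken as markers of dividing or young cells, were mixed. Of 23 tested 7 rose, a share close to the 696 of 2217 of all genes with a locus name, and without OE1-2 14 rose, against 1091 of 2217. Tubulins, kinesins and MAP65 proteins made up most of the 11 genes over the limit in OE1-1 and OE1-3 only. A MAP65/ASE1 protein (LOC_Os09g27700), which bundles microtubules during division, was at 1.72, 1.69 and 1.31 CPM in wild type and at 31.4, 3.09 and 81.4 CPM in OsbZIP62V. The beta-8 chain of tubulin (LOC_Os03g45920) was at 4.69, 5.50 and 2.67 CPM and at 38.8, 6.17 and 70.4 CPM. Both were highest in OE1-3 and close to the wild type in OE1-2. Histone and cyclin genes mostly did not follow this order. Histone H2A.5 (LOC_Os03g17100) was at 17.5, 12.2 and 13.6 CPM and at 7.58, 6.77 and 7.43 CPM (log2 fold change -0.99, adjusted p = 0.027), and a second MAP65 gene (LOC_Os02g03400) at 2.98, 3.81 and 3.52 CPM and at 0.803, 2.00 and 1.21 CPM. Histone H2AXb (LOC_Os12g34510) rose evenly, from 1.49, 2.13 and 2.26 CPM to 4.19, 5.47 and 4.62 CPM. The summed level of the 23 genes was 228 to 275 CPM in wild type and 478, 291 and 868 CPM in OsbZIP62V, and none of the 23 was at 0 in wild type.

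Root-labelled and Casparian-strip-like genes were few, and all tested members were annotated as CASP-like, none as root-labelled. Of 5 tested, 2 rose, and without OE1-2 3 rose. Their summed level was 19.1 to 26.6 CPM in wild type and 58.2, 39.9 and 95.2 CPM in OsbZIP62V. Much of this sum came from LOC_Os04g21320, at 33.8, 19.7 and 67.9 CPM in OE1-1, OE1-2 and OE1-3, which did not pass the test. OE1-2 was the lowest OsbZIP62V library for 3 of the 5 genes, but LOC_Os08g42430 was at 5.28, 5.85 and 2.37 CPM. The summed levels of the 3 marker lists, of leaf photosynthesis, of division and of CASP-like proteins, shared the order of libraries. In each sum OE1-3 was highest and OE1-2 lowest of the OsbZIP62V libraries. The sum over all 2217 tested genes with a locus name had this order too, at 100546, 85353.5 and 106148 CPM in OE1-1, OE1-2 and OE1-3. The order was thus not particular to the marker lists. The part of a different make-up of the leaf samples in the uneven genes was not tested. In bulk leaf RNA, a different number of cells of a type and a different amount of RNA per cell cannot be told apart.

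**Figure D4:**
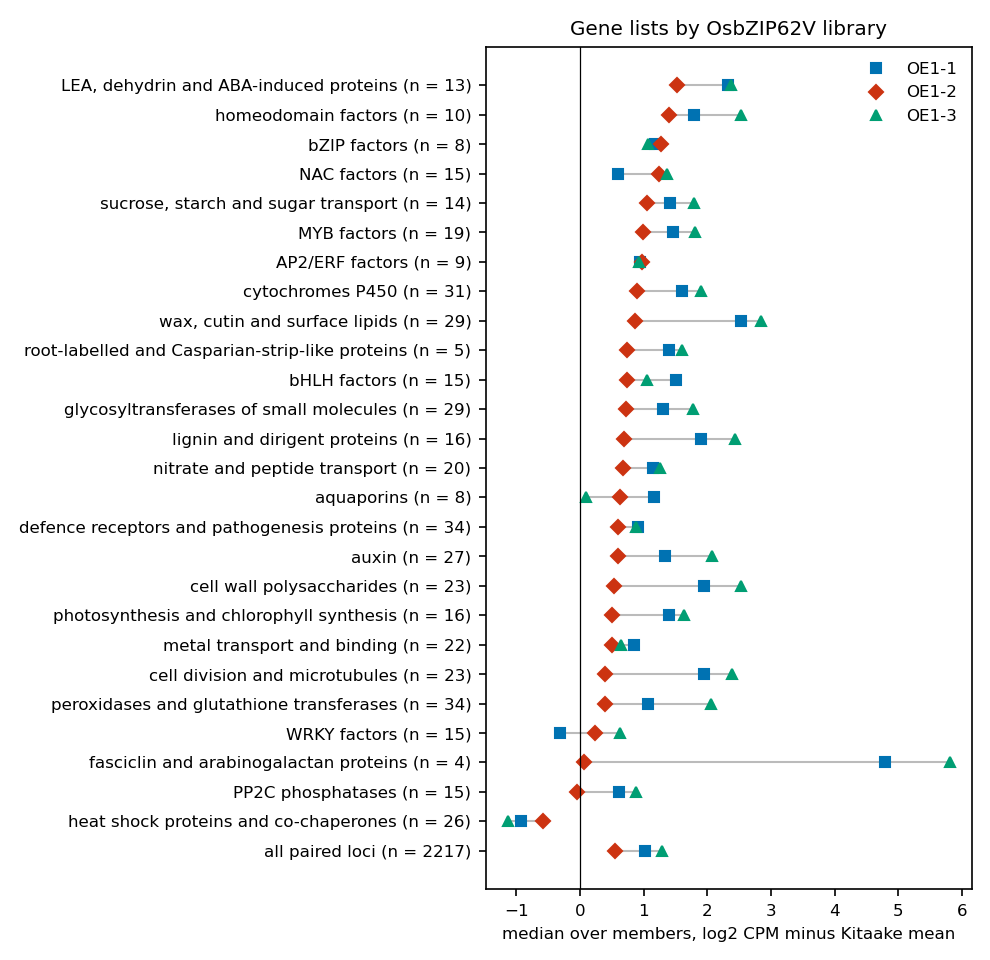
Median over the tested members of each gene list of log2 CPM minus the Kitaake mean, for OE1-1, OE1-2 and OE1-3, with the number of members in parentheses. The bZIP and AP2/ERF lists have 3 close symbols, as at 0.94, 0.98 and 0.93, whereas cell wall, surface lipid, lignin and division genes have OE1-2 far to the left, as at 1.95, 0.53 and 2.53 for cell wall polysaccharides. The LEA list also holds ABA-responsive element binding factors and ABA 8'-hydroxylases.

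A further set of genes was so low in OE1-2 that it did not pass the filter, which needed a minimum level in 3 libraries. Of the 2895 genes with a locus name 678 were below the filter, 538 of them from the study's list for OsbZIP62V. Their median counts were 0 in each wild type library and 38, 2 and 75 in OE1-1, OE1-2 and OE1-3. Without OE1-2 the filter passed 457 of the 538, and all 457 were called higher. They passed that filter only because OE1-1 and OE1-3 were high, so this count is no evidence about the set. Over all genes below the filter, 779 had at least 10 counts in OE1-1 and OE1-3 only, against 63 in OE1-1 and OE1-2 only and 135 in OE1-2 and OE1-3 only.

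Among them were 5 genes that the study names. A CER1-like gene of wax synthesis (LOC_Os02g56920) had 2, 1 and 0 counts in the wild type libraries and 554, 4 and 3235 counts in OE1-1, OE1-2 and OE1-3. The lipid-transfer protein LOC_Os11g02350 had no count in wild type and 33, 6 and 585 counts in OsbZIP62V. A class III peroxidase (LOC_Os07g01370) had no count in wild type or in OE1-2 and 70 and 153 counts in OE1-1 and OE1-3. In each of these 3 genes OE1-2 had at most 6 counts. OsSWN2 (LOC_Os08g02300), a NAC factor of secondary wall formation, had 4, 2 and 0 counts in wild type and 44, 2 and 71 in OsbZIP62V. The auxin-responsive SAUR gene LOC_Os12g43110 had none in wild type and 9, 0 and 19 in OsbZIP62V.

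The genes that fell were dominated by even changes. Most genes with strong falls had no locus name. Among these were OS09G0522000, from 88.5, 117 and 63.8 CPM to 5.68, 2.71 and 1.38 CPM (log2 fold change -4.79), and OS11G0151400 (-4.54), both uneven. The genes described next carry a name only through the study's list for osbzip62, as do WRKY24, OsMYB2 and the heat shock genes named below. A gene with a plastocyanin-like domain (LOC_Os08g37660) was at 165, 299 and 225 CPM in wild type and at 11, 8.39 and 16.8 CPM in OsbZIP62V (log2 fold change -4.25, SE 0.33, adjusted p = 0.000794). A carbonic anhydrase (LOC_Os08g32750), of the enzymes that interconvert CO2 and bicarbonate, was at 47.5, 32.4 and 31.0 CPM and at 4.94, 5.95 and 4.46 CPM. Both were lower in each OsbZIP62V library than in any wild type library, and OE1-2 did not stand apart. A prolyl endopeptidase (LOC_Os04g47360) was at 1438, 1282 and 1334 CPM in wild type and at 201, 418 and 119 CPM in OsbZIP62V, uneven with OE1-2 nearest the wild type.

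Regulators of defence and jasmonate signalling were among the genes that fell evenly. WRKY24 (LOC_Os01g61080) was at 283, 524 and 369 CPM in wild type and at 52.2, 59.2 and 64.7 CPM in OsbZIP62V (log2 fold change -2.74, SE 0.25, adjusted p = 0.00149). OsWRKY53 (LOC_Os05g27730), a WRKY factor of defence, was at 492, 752 and 527 CPM and at 208, 271 and 223 CPM. TIFY 10a (LOC_Os03g28940), of the JAZ family that represses jasmonate responses, was at 703, 741 and 592 CPM and at 311, 278 and 198 CPM. Each of these genes was higher in every wild type library than in any OsbZIP62V library. Of 34 tested genes of defence receptors and pathogenesis proteins, 9 rose and 3 fell, and without OE1-2 14 rose and 3 fell. Over all 2217 genes with a locus name the counts were 696 and 212, and without OE1-2 1091 and 277. A PRB1-2-like gene of this list (LOC_Os01g28500) rose evenly, from 11.4, 16.4 and 11.5 CPM to 26.5, 29.7 and 37.5 CPM. Of 15 tested WRKY genes 2 fell and 1 rose, and without OE1-2 3 fell and 1 rose, with medians of -0.31, 0.23 and 0.63. Most genes with strong falls had no locus name, so these counts do not give the share of WRKY genes that fell.

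Stress signalling genes that fell evenly were the kinase CIPK31 (LOC_Os03g20380), which acts with calcineurin B-like calcium sensors, from 676, 581 and 641 CPM to 259, 256 and 165 CPM, and the zinc finger protein LOC_Os08g39450, of the A20/AN1 stress-associated type, from 605, 711 and 526 CPM to 301, 243 and 214 CPM. OsMYB2 (LOC_Os03g20090) fell from 25.1, 53.6 and 29.8 CPM to 7, 6.28 and 6.11 CPM. Of 19 tested MYB genes OsMYB2 was the 1 that fell, while 7 rose, and without OE1-2 10 rose. Over all genes with a locus name 696 of 2217 rose, and without OE1-2 1091. The cytosolic ascorbate peroxidase APX2 (LOC_Os07g49400), which removes hydrogen peroxide, was at 1172, 881 and 774 CPM in wild type and at 402, 373 and 205 CPM in OsbZIP62V (log2 fold change -1.53, SE 0.29, adjusted p = 0.0219). In all 4 genes OE1-2 was within the range of the other OsbZIP62V libraries. ABA 8'-hydroxylase 3 (LOC_Os09g28390), which breaks ABA down, was at 83.5, 113 and 101 CPM and at 58.0, 44.6 and 24.9 CPM, with OE1-1 nearest the wild type.

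Heat shock proteins and co-chaperones were, of the 26 lists, the one with the most genes that fell. Of 26 tested members 10 fell and 5 rose, without OE1-2 13 fell and 5 rose, with medians of -0.94, -0.59 and -1.13 and a median log2 fold change of -1.11, against 1.12 over the tested genes with a locus name. An HSP82-like gene (LOC_Os08g39140), a chaperone of the HSP90 class, was at 64.7, 44.3 and 39.3 CPM in wild type and at 10.3, 16.0 and 11.9 CPM in OsbZIP62V. A DnaJ gene (LOC_Os04g57880), of the co-chaperones of Hsp70, was at 14.7, 17.6 and 16.1 CPM and at 1.55, 5.74 and 2.48 CPM. The Hsp70 family gene LOC_Os01g62290 was at 21.1, 17.3 and 11.3 CPM and at 2.64, 6.17 and 1.87 CPM. The groups did not overlap in these 3 genes, and OE1-2 was the highest OsbZIP62V library in each.

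The 42 genes that fell in OE1-1 and OE1-3 only had medians of -1.18, -0.84 and -1.47, smaller in each library than those of the even genes. An LHY-like gene (LOC_Os04g49450), a morning factor of the circadian clock, was at 673, 680 and 747 CPM in wild type and at 305, 369 and 293 CPM in OsbZIP62V (log2 fold change -1.12, SE 0.16, adjusted p = 0.00897). A VTC2-like gene (LOC_Os12g08810), for an enzyme of ascorbate synthesis, was at 2943, 3103 and 3138 CPM and at 1467, 1583 and 825 CPM. In both genes OE1-2 was below all wild type libraries and near OE1-1. Of the 409 genes that fell only 212 had a locus name, and of the 203 that fell by over 3-fold only 17, since the copy of the supplementary list used here is not complete.

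The Nipponbare and osbzip62 libraries were not used to set the classes. The even and uneven genes behaved differently in them. Relative to the mean of those 6 libraries, the medians of the 299 even genes that rose were -0.22, -0.16 and -0.44 in the 3 Nipponbare libraries and 0.12, 0.16 and 0.43 in the 3 osbzip62 libraries. The medians of the 237 uneven genes were 1.40, 0.47 and -1.35 in Nipponbare and -0.49, 0.48 and -0.47 in osbzip62. Those of the 162 genes of OE1-1 and OE1-3 only were 1.18, 0.61 and -0.76 and -0.54, 0.20 and -0.55. The genes that separated the OsbZIP62V libraries thus also separated the replicates of Nipponbare wild type, and 92.0% of the 162 were above the mean in NIP-1 and 13.6% in NIP-3. Medians over all genes tested were between -0.02 and 0.01 in each library.

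**Figure D5:**
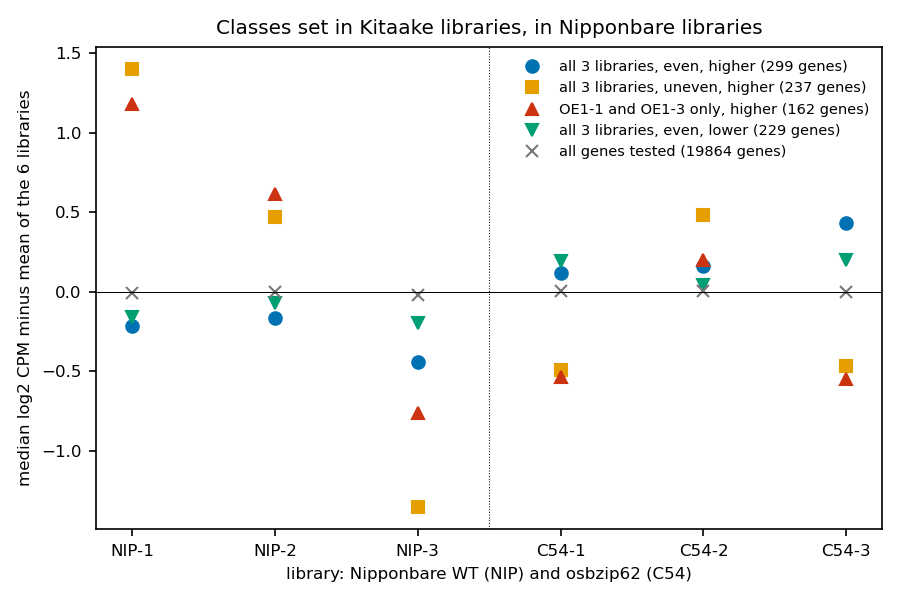
Median over the genes of each class of log2 CPM minus the mean of the 6 Nipponbare and osbzip62 libraries, by library. Within the wild type, uneven genes range from 1.40 in NIP-1 to -1.35 in NIP-3. Genes of OE1-1 and OE1-3 only range from 1.18 to -0.76 in the same libraries. Even genes stay between -0.44 and 0.43 and all genes near 0.

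Of the genes tested in both comparisons, 0.335% were called higher and 0.0419% lower in osbzip62 than in Nipponbare. Among 269 even genes that rose in OsbZIP62V, 13 (4.83%) were also called higher in osbzip62 and none lower. Among 223 uneven genes 4 were called higher and none lower, and among the 162 genes of OE1-1 and OE1-3 only 1 was called higher and none lower. Of the genes that rose in all 3 libraries, 492 were tested in both comparisons. At an unadjusted p under 0.05 in edgeR's test, 108 of these 492 were higher and 37 lower in osbzip62. Of the 162 genes of OE1-1 and OE1-3 only, 4 were higher and 26 lower at that threshold. Over all 19113 genes tested in both, 8.74% were higher and 8.21% lower at that threshold. DESeq2 called 68 of the 536 genes of the first class higher and 14 lower, and 2 of the 162 of the second higher and 9 lower. Over the 19113 genes it called 467 higher and 296 lower. The 17 genes that rose in all 3 OsbZIP62V libraries and in osbzip62 were 3.46% of the former and 26.6% of the 64 called higher in osbzip62. This count moved with single libraries. It was 0 without osbzip62 replicate 1 or replicate 3, 4 without osbzip62 replicate 2, 6 without Nipponbare replicate 2 and 35 without Nipponbare replicate 3. The difference between the effects in the lines was not tested.

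Some of these genes were at or near 0 in both wild types. LOC_Os03g02470, an expressed protein, had 3 counts in the Kitaake libraries together and was at 120, 139 and 103 CPM in OsbZIP62V, a ratio of 1896 with a 95% counting interval of 648 to 9196. It was at 0 in the 3 Nipponbare libraries and at 93.1, 85.8 and 95.7 CPM in osbzip62. LOC_Os03g43100, also an expressed protein, had no count in any of the 6 wild type libraries and was at 4.07, 2.92 and 3.63 CPM in OsbZIP62V and at 5.08, 6.52 and 6.67 CPM in osbzip62. Both were thus seen in each transgenic library and hardly or not in wild type.

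Genes with a wild type level also rose in both lines. LOC_Os02g01590, annotated as a fructosyltransferase, was at 9.04, 15.7 and 14.1 CPM in Kitaake and at 169, 184 and 212 CPM in OsbZIP62V, and at 65.1, 77.7 and 52.8 CPM in Nipponbare and 256, 260 and 346 CPM in osbzip62. A low-temperature-induced protein (LOC_Os03g17790) was at 8.70, 11 and 10.9 CPM and 128, 145 and 81.8 CPM in the first pair of groups, and at 5.86, 7.70 and 6.17 CPM and 35.5, 41.3 and 73.1 CPM in the second. In all 4 comparisons of these genes the transgenic and wild type libraries did not overlap. A thioredoxin family gene (LOC_Os02g56900) fell in OsbZIP62V, from 28.5, 38.1 and 27.8 CPM to 12.5, 12 and 7.37 CPM, and rose in osbzip62, from 4.77, 4.8 and 4.23 CPM to 42.5, 25.9 and 60.6 CPM.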

How the data were processed

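Leaf RNA of 12 rice libraries was sequenced by the authors, and the 6 Kitaake-background libraries form the comparison. TruSeq libraries, which do not mark strand, were trimmed with SeqPrep and Sickle and aligned with HISAT2 2.1.0, and the submitters' processing notes list IRGSP-1.0 as build and HTSeq 0.6.1p2 and Bowtie2 2.2.3 as tools. The annotation release and counting settings are not given in the sources used here. Without strand, reads of overlapping or antisense partners cannot be told apart, and copies of a gene may share reads. The deposited counts are whole reads per gene without normalization, and the deposited RPKM equal these counts over gene length and library total. This was checked on 10879 genes. The counts were used for all tests, and RPKM only to pair names.

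The authors compared groups with DESeq2. Here the 6 libraries were fitted with edgeR's quasi-likelihood test after TMM normalization and edgeR's default filter, and the Nipponbare-background libraries were fitted alone in the same way. CPM include TMM factors (0.942 to 1.158). Standard errors follow from the F statistic and the fold change. The log2 CPM of single libraries carry a prior count of 2. Where wild type had no count, folds allow 3 counts over the group, and counting intervals (95%) cover counting error only. Replicates were distinct, with a chi-square per degree of freedom of 7.46 or more between any pair.

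The deposited gene identifiers were paired with LOC_Os loci by using the fold changes printed in the study's supplementary lists as a key (relative tolerance 6e-06), which gave 2895 loci, 2217 of them tested. Those columns hold the authors' comparisons and were used for nothing else. The 26 gene lists were matched on annotation text. Named genes were OsbZIP62, the genes the study names, in each class the 8 largest changes and the 5 highest levels among called annotated genes, and up to 4 called members of each list with the highest level. The largest changes without a locus name were also chosen. Genes at the class limit and genes called in both lines were added after their values were seen, as was the split into even and uneven genes. The members and lists were chosen with earlier results of these data known. Alternatives were median-of-ratios size factors, no filter, DESeq2, a replicate block, other limits and prior counts, and leaving out each library. A filter of 10 counts in 2 libraries and a range limit of 1.5 were chosen after seeing the data. The tests were tried on simulated counts. Promoter and protein sequences were not analysed here. Fits were run with edgeR 4.0.16, DESeq2 1.42.0 and limma 3.58.1 in R 4.3.3, and tables and plots were made with pandas 2.3.3, matplotlib 3.10.9, scipy 1.17.1 and numpy 2.4.6 in Python 3.11.15.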

Additional observations from a re-analysis of the deposited data

How the results depend on the processing

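The count of genes that rose, 769, was 1766 with DESeq2 and 491 with a filter of 10 counts in 2 libraries, an alternative chosen after seeing the data, and ranged from 112 to 2474 with 1 library left out. The count that fell, 409, was 531 with DESeq2 and ranged from 84 to 585 with 1 library left out. Size factors by median of ratios and no filter moved both counts by less than 1.5 times. With a limit of 2 log2 units per library, 184 of the called genes were higher in all 3 libraries in place of 536. At that limit 213 were higher in OE1-1 and OE1-3 only in place of 162, so that this became the larger class. In all 3 libraries 58 were lower in place of 301, and 22 were lower in OE1-1 and OE1-3 only in place of 42. With a limit of 0.5, the genes of OE1-1 and OE1-3 only fell from 162 to 19 among the higher and from 42 to 0 among the lower calls, and with the filter of 10 counts from 162 to 42. Leaving out a wild type library gave 507 to 560 and 139 to 176 for the higher classes of 536 and 162. The 17 genes of the first class called higher in osbzip62 were 68 with DESeq2, 0 with a replicate block and 0 to 35 with 1 library left out, and the 1 gene of the second class was 2, 0 and 0 to 1. The causes were not tested.

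Replicate numbers did not pair the samples, with correlations of 0.177, 0.010 and -0.045 between the deviations of same-numbered OsbZIP62V and Kitaake libraries. With the replicate number as a block, 617 genes rose and 397 fell. Of the 139 named calls, 113 were kept with the block, 137 with DESeq2 and 95 with the filter of 10 counts, and no call changed sign under any alternative. Depth limits the lowest genes, where a handful of counts in OE1-2 set the class.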

Other observations

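Transport and hormone genes not described above also fell on either side of the split between libraries. The list counts in this section stand beside 696 genes that rose and 212 that fell of all 2217 with a locus name. Without OE1-2 these were 1091 and 277. A nitrate and chloride transporter (LOC_Os07g09010) rose evenly, from 0.801, 1.88 and 1.41 CPM in WT-1, WT-2 and WT-3 to 10.7, 8.50 and 15.6 CPM in OE1-1, OE1-2 and OE1-3. The peptide transporter LOC_Os03g60850 also rose evenly, from 15.2, 15.6 and 13.4 CPM to 36.8, 34.0 and 36.0 CPM. A second peptide transporter of the same annotation, LOC_Os08g05910, rested on OE1-1 and OE1-3, at 32.7, 29.0 and 20.1 CPM in wild type and 64.0, 40.4 and 97.5 CPM in OsbZIP62V. Of 20 tested nitrate and peptide transporters 6 rose and 1 fell, and without OE1-2 10 rose and 2 fell, shares of rises close to those of all genes with a locus name. Nitrate reductase 1 (LOC_Os08g36480), which reduces nitrate to nitrite, fell from 849, 927 and 784 CPM to 471, 429 and 289 CPM.

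Of 27 tested auxin genes 10 rose and 1 fell, and without OE1-2 17 rose. IAA15 (LOC_Os05g08570), of the repressors that auxin degrades, was uneven, at 9.96, 7.69 and 6.04 CPM in wild type and at 25.8, 20.1 and 50.7 CPM in OsbZIP62V. A dormancy/auxin-associated gene (LOC_Os09g26620) had OE1-1 and not OE1-2 as the lowest OsbZIP62V library, at 32.7, 64.2 and 30.5 CPM in wild type and 82.6, 188 and 202 CPM in OsbZIP62V. Of 14 tested genes of sucrose, starch and sugar transport 7 rose and 1 fell, and without OE1-2 11 rose and 1 fell. The gene that fell was a beta-amylase (LOC_Os07g35880), of the enzymes that break starch down to maltose, from 167, 127 and 87.1 CPM to 60.6, 63.5 and 35.4 CPM. LOC_Os09g23350, annotated as a trehalose synthase, rose evenly, from 71.4, 57.2 and 58.7 CPM to 178, 153 and 230 CPM.

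Of 31 tested cytochromes P450, 14 rose and without OE1-2 23 did. Of 29 tested glycosyltransferases of small molecules 9 rose, a share close to that of all genes with a locus name, and 1 fell. Without OE1-2 19 rose. Metal-associated genes moved both ways. LOC_Os04g17100, with a heavy-metal-associated domain, rose from 386, 433 and 354 CPM to 928, 935 and 710 CPM, while LOC_Os04g39350 fell from 105, 124 and 112 CPM to 32.0, 45.1 and 43.5 CPM. Of 22 tested genes of metal transport and binding 5 rose, 3 of them in OE1-1 and OE1-3 only and none evenly, and 4 fell, and without OE1-2 10 rose and 6 fell. An example of the former is LOC_Os03g29920, at 0.801, 0.188 and 0.252 CPM in wild type and 13.1, 0.650 and 46.1 CPM in OsbZIP62V. As above, these lists hold only genes that the study listed as changed.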
